A study of Mus musculus with 7 samples.

Results

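The G1 cyclins, their kinases and the CIP/KIP inhibitors were followed as a set of 10 genes in mammary glands of tumour-prone mice fed conjugated linoleic acid (CLA) or control chow. The set holds the D cyclins Ccnd1, Ccnd2 and Ccnd3, the E cyclins Ccne1 and Ccne2, the kinases Cdk4 and Cdk6, and the inhibitors Cdkn1a, Cdkn1b and Cdkn1c. The genes were chosen by name, as those on probe sets annotated to exactly 1 of these symbols, and are 10 of the 18193 genes that the arrays cover in this way. They were measured by 27 probe sets, of which 23 passed a filter on dim signals. All 10 genes passed on their brightest probe set and were among the 12497 genes tested. Each gene is represented by the probe set with the highest mean log2 signal, and the others are given beside it.

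All mice were virgin females of the FVB/PyV-Mt strain, which carries the polyoma virus middle T oncogene that drives mammary tumours, and both diet groups carry it. The CLA group received chow with 1% CLA, a mixture of linoleic acid isomers, and the control group AIN93G chow, in each case for 4 weeks from 4 weeks of age, and glands were taken at 8 weeks. The study placed 6 mice on CLA chow and 5 on control chow, and the arrays hold 4 CLA glands and 3 control glands, 1 per Affymetrix array. The sources used here do not name the transgene's promoter, no gland without the oncogene is among the arrays, and a whole gland mixes epithelium, fat, stroma and neighbouring muscle.

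Passage from G1 into DNA replication is set by a balance between cyclins and inhibitors. D cyclins bind Cdk4 or Cdk6 and begin the phosphorylation of the retinoblastoma protein, E cyclins bind Cdk2 and complete it, and the E2F factors that are then released switch on replication genes, Ccne1 and Ccne2 among them. The CIP/KIP proteins p21 (Cdkn1a), p27 (Cdkn1b) and p57 (Cdkn1c) inhibit cyclin E with Cdk2, while p21 and p27 can also help D cyclins assemble with Cdk4. Cyclin D1 is the main D cyclin of mammary epithelium, and mice without it form little lobuloalveolar tissue in pregnancy.

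Values are MAS5 signal intensities, the summary of a probe set on a linear scale, and each of the 7 arrays has a trimmed mean of 500.003, so every difference is a share of a gland's transcripts and not an amount per cell. The luminal keratin genes Krt8 (signals from 15379 to 19240) and Krt18 (16268 to 20972) and the casein gene Csn3 (33125 to 49272) were bright on all 7 arrays, the markers of the labelled tissue. The arrays fell apart in another respect. Xist, the RNA that coats the inactive X chromosome of female cells, had signals of 11397, 9108, 10784 and 5660 on CLA replicates 1 to 4, against 10042, 94.1 and 78.0 on control replicates 1 to 3. Eif2s3x, an X-linked gene expressed from both X chromosomes, had 8204, 8223, 7734 and 8983 on the CLA arrays, against 7713, 4734 and 5502 on the control arrays. The 10 probe sets of the Y-linked genes Eif2s3y, Kdm5d, Uty and Usp9y stayed at or below 46.7 on every array, under the filter signal of 57.7. Control replicates 2 and 3 therefore stand apart from the other 5 arrays in Xist although the labels call all mice female, and the diet difference of each member and gene list below is given with and without them. They are also 2 of the 5 arrays whose title numbers start with 28, while control replicate 1 and CLA replicate 1 have numbers that start with 27. The sources used here do not say what these numbers mean. Only 7 arrays set the precision of every value. No label states that each array is a separate animal, so p-values measure the spread between these arrays, which may be technical.

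No member passed limma's test between the diets after Benjamini-Hochberg adjustment over all genes, and the smallest adjusted p among them was 0.703, for Ccne1. The same test called 0 of 12497 genes higher and 0 lower in CLA glands (0.0% each). At an unadjusted p under 0.05 there were 3 members, Ccne1 and Cdk4 with higher and Cdkn1a with lower signal in CLA glands, against 674 of all genes tested (5.39%). Of all genes 298 (2.38%) were on the higher and 376 (3.01%) on the lower side. The CLA arrays lay above all control arrays for 2 members, Ccne1 and Cdk4, and below them for 0, where the background was 2.64% and 2.67% of genes. Over the 10 members the median log2 change, CLA minus control, was 0.19 with 7 changes above 0, beside a median of 0.03 and 55.3% above 0 over all genes tested. Without control replicates 2 and 3 the median of the members was 0.15, with 6 changes above 0. Over all genes tested the same fit gave a median of 0.03, with 53.6% above 0. That comparison has 1 control array, which is assumed to vary like the CLA arrays.

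**Figure D1:**
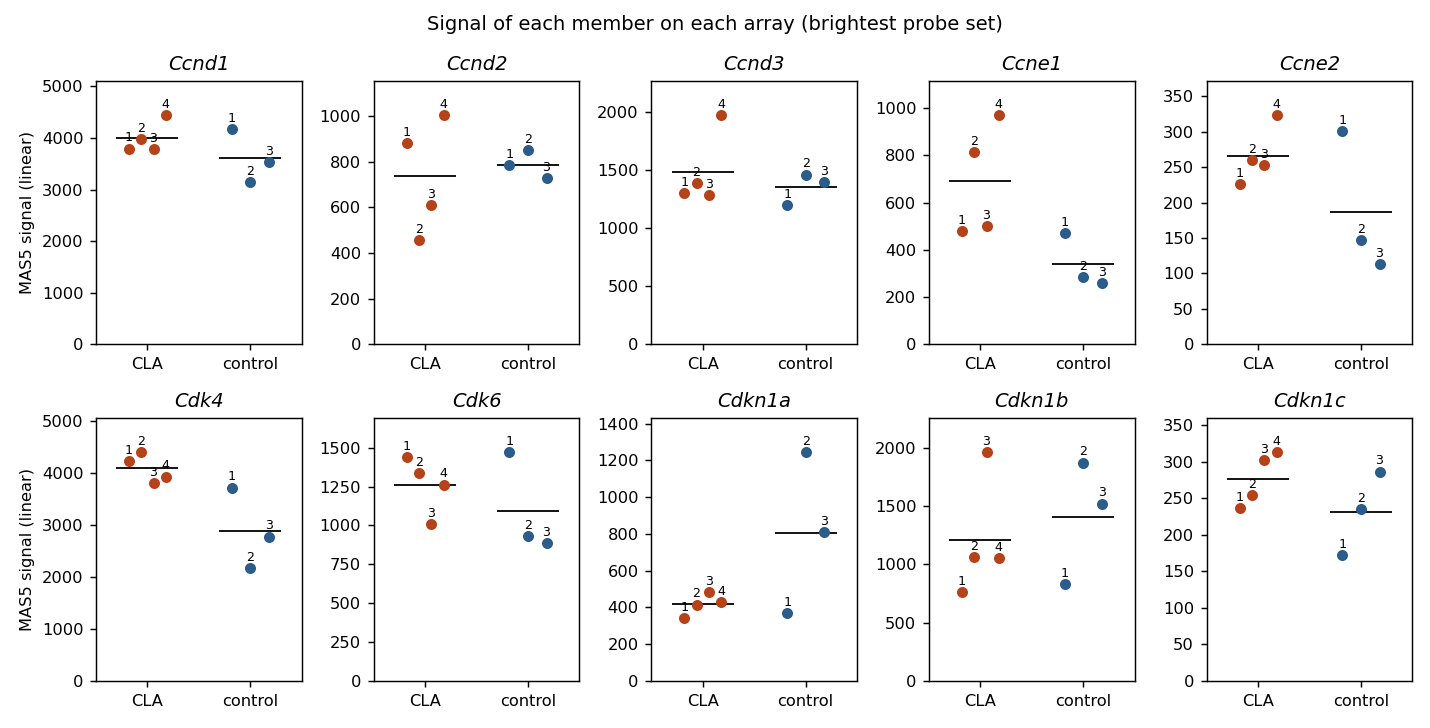
MAS5 signal on a linear axis from 0 for the brightest probe set of each member; points are arrays numbered by replicate, CLA left and control right, and lines are group means. For Cdk4 and Ccne1 all 4 CLA arrays lie above all 3 control arrays, while for Cdkn1a control replicate 1 lies at 369, among the CLA arrays.

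Cdk4, the kinase partner of the D cyclins, was the member with the most uniform separation. On its brightest probe set it had signals of 4236, 4407, 3809 and 3935 on CLA replicates 1 to 4, against 3724, 2178 and 2779 on control replicates 1 to 3. All CLA arrays were above all control arrays, control replicate 1 came close to them, and control replicate 2 was lowest. Cdk4 averaged 4097 ± 274 in CLA glands (SD, n = 4) and 2894 ± 779 in control glands (SD, n = 3). Its log2 change was 0.53 ± 0.18 (SE), 1.45-fold, with a 95% interval from 0.14 to 0.93, an unadjusted limma p of 0.0139 and a limma adjusted p of 0.775.

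The other 2 Cdk4 probe sets separated the groups too. One had 3108, 3958, 2722 and 3253 on the CLA arrays, against 2596, 1588 and 2050 on the control arrays, a log2 change of 0.67 ± 0.19 (SE). The other had 2571, 3444, 3356 and 2844 on the CLA arrays, against 2260, 1886 and 2158 on the control arrays, a log2 change of 0.53 ± 0.15 (SE). Of 2625 genes with at least 3 probe sets past the filter, 1 (0.0381%) had the CLA arrays above the control arrays on every one, and that gene was Cdk4, which was noticed after the values were seen. In 4 such genes the CLA arrays were below on every probe set. The brightest Cdk4 probe set has the x suffix that Affymetrix gives to sets whose probes may hybridise to other transcripts, and the other 2 do not. Between CLA replicate 1 and control replicate 1, the pair with title numbers in 27, it was 0.19 on the log2 scale, and among the 5 arrays with numbers in 28 it was 0.72. The log2 change of Cdk4 without control replicates 2 and 3 was 0.14, with an interval from -0.30 to 0.57.

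The promoter of Cdk4 is shown because Cdk4 was the one member separated on every probe set, together with those of Ccne1 and Cdkn1a, the other 2 members with an unadjusted p under 0.05. Sequences are those of RefSeq on GRCm38.p6, 250 bases before to 50 after an annotated start, read 5′ to 3′ on the strand of the gene. The Cdk4 window is chr10:127063285-127063584 (plus strand), the Ccne1 window chr7:38107441-38107740 (minus strand) and the first of 2 Cdkn1a windows chr17:29090729-29091028 (plus strand). Capitals mark the E-box CACGTG and the GC box GGGCGG on either strand in Cdk4, GC boxes in Ccne1 and a p53 response element in Cdkn1a.
Cdk4: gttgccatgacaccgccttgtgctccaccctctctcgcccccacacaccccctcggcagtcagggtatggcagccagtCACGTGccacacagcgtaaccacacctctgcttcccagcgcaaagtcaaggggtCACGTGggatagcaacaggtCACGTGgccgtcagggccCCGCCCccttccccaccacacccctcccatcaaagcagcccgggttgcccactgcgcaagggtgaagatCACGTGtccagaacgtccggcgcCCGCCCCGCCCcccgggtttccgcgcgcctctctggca
Ccne1: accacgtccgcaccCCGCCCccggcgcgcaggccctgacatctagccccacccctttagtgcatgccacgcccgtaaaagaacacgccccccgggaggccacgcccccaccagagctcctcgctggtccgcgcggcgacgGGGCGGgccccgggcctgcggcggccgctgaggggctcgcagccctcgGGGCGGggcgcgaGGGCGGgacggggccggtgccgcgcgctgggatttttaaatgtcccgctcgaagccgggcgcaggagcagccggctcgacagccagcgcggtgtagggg
Cdkn1a: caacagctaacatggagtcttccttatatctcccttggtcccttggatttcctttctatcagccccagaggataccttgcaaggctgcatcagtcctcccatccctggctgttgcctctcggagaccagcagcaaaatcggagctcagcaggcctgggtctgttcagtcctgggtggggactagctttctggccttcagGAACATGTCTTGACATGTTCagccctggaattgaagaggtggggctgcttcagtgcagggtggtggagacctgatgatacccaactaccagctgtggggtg
The Cdk4 window holds 4 copies of CACGTG, the letters that Myc with Max can bind, at -172, -118, -98 and -11 from the start. At least 1 copy occurs in 7.15% of the 32851 promoter windows and 4 or more in 0.0244%, or 8 windows. It also holds 3 GC boxes, 2 of which overlap each other, a motif found in 35.7% of windows. The Ccne1 window holds 4 GC boxes, a number reached by 5.49% of windows. The first Cdkn1a window holds 1 match to a p53 response element of 2 adjacent decamers with up to 1 mismatch. It starts at -51 from the annotated start of that window, and 0.0883% of windows hold such a match. The second Cdkn1a window, chr17:29093519-29093818 (plus strand), is not shown, and it holds GC boxes at -104 and -46 but no such match. The E2F forms TTTGGCGC, TTTCGCGC and TTTCCCGC, searched on both strands, were in none of the 8 windows of the 6 members with an entry (Ccnd3, Ccne1, Cdk4, Cdk6, Cdkn1a and Cdkn1b), and 1.84% of all windows hold one. These are matches of letters within 300 bases, and binding was not measured.

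Cdk6, the second D cyclin kinase, followed the same arrays but did not separate the groups. Its brightest probe set had 1441, 1335, 1011 and 1263 on the CLA arrays, against 1472, 930 and 886 on the control arrays. Control replicate 1 was the highest of all 7 arrays and control replicates 2 and 3 were the lowest. Cdk6 had a log2 change of 0.23 ± 0.21 (SE), with an interval from -0.24 to 0.70 and a limma adjusted p of 0.976. A second Cdk6 probe set, with signals from 816 to 1100 in CLA glands and from 792 to 973 in control glands, had 0.14 ± 0.16 (SE), and the third was below the filter. The change of Cdk6 was -0.23 when control replicates 2 and 3 were left out.

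Ccne1, which encodes cyclin E1, the activator of Cdk2 at the start of replication, had the largest log2 change of the 10 on the brightest probe sets. As means of probe sets Cdkn1a had the larger change, -1.21 against 0.85 for Ccne1. On its brightest probe set Ccne1 had 478, 813, 500.5 and 969.8 on CLA replicates 1 to 4, against 472, 284 and 259 on control replicates 1 to 3. CLA replicates 2 and 4 were high, control replicates 2 and 3 were low, and between CLA replicate 1 and control replicate 1 the signal was nearly equal. Ccne1 averaged 690.3 ± 241 in CLA glands (SD, n = 4) and 338 ± 116 in control glands (SD, n = 3). Its log2 change was 1.01 ± 0.31 (SE), 2.02-fold, with an interval from 0.32 to 1.70 and a limma unadjusted p of 0.00858. This p ranked 147 among the 12497 genes. Its other probe set, without the x suffix that the brightest one carries, had 206, 318, 250.3 and 361 on the CLA arrays, against 232, 150.2 and 149 on the control arrays. There the groups overlapped, since control replicate 1 was above CLA replicate 1, and the log2 change was 0.68 ± 0.28 (SE). The change of Ccne1 was 0.02 in the pair with numbers in 27 and 1.43 among the arrays with numbers in 28. Without control replicates 2 and 3 it was 0.48, with an interval from -0.49 to 1.45.

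Ccne2, the second cyclin E, is measured by 1 probe set and overlapped between the diets. It had 226, 261, 253 and 323 on the CLA arrays, against 301, 147 and 113 on the control arrays. Control replicate 1 exceeded all CLA arrays but replicate 4, while control replicates 2 and 3 were below every CLA array. For Ccne2 the log2 change was 0.62 ± 0.32 (SE), with an interval from -0.11 to 1.35 and a limma adjusted p of 0.915. It was -0.41 in the pair with numbers in 27 and 1.10 among the arrays with numbers in 28, and without control replicates 2 and 3 it was -0.19. The 2 E cyclins varied together over the 7 arrays, with a Pearson r of 0.87, given as a description of arrays that share the 2 diets.

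On their brightest probe sets the D cyclins had log2 changes from -0.16 to 0.15, each with an interval that held 0. Ccnd1, cyclin D1, had 3795, 3981, 3778 and 4439 on CLA replicates 1 to 4, against 4173, 3139 and 3531 on control replicates 1 to 3. The highest array was 1.41 times the lowest, and control replicates 2 and 3 were again below the other 5 arrays. CLA minus control was 0.15 ± 0.14 (SE) on the log2 scale, with an interval from -0.15 to 0.46, or 0.90-fold to 1.37-fold, and a limma adjusted p of 0.974. Its other probe sets had 0.23 ± 0.17 and -0.08 ± 0.22 (SE), and without control replicates 2 and 3 the change was -0.06.

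Ccnd2, cyclin D2, which is prominent in lymphoid and ovarian cells, spread widely among CLA glands. It had 883, 458, 608 and 1003 on the CLA arrays, against 784, 849 and 727 on the control arrays. CLA replicates 2 and 3 were below and CLA replicates 1 and 4 above all control arrays, so the CLA values enclosed the control values. The log2 change was -0.16 ± 0.26 (SE), with an interval from -0.74 to 0.43 and a limma adjusted p of 0.997. The 4 other Ccnd2 probe sets past the filter had log2 changes of -0.31, -0.39, -0.31 and -0.65, none with separate groups, and 2 more lay below the filter. Lymphocyte markers were dim, with 11 of the 15 on the array below the filter, and their summed signal ranged from 1381 to 2135 in CLA glands and from 1658 to 2299 in control glands. The part of lymphocytes in the Ccnd2 values was not tested. Leaving out control replicates 2 and 3 gave -0.15 for Ccnd2.

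Ccnd3, cyclin D3, had 1304, 1389, 1283 and 1974 on the CLA arrays, against 1200 (control replicate 1), 1462 and 1398 on the control arrays. CLA replicate 4 was the highest of the 7 arrays, and the other 3 CLA arrays lay within the control range. Ccnd3 had a log2 change of 0.12 ± 0.18 (SE), with an interval from -0.29 to 0.52 and a limma adjusted p of 0.996. The second probe set past the filter had -0.28 ± 0.30 (SE), the opposite sign, so no direction can be given for Ccnd3. Without CLA replicate 4 the change was -0.03, and without control replicates 2 and 3 it was 0.29.

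Among the inhibitors, Cdkn1a, the p53-induced p21, had the lower mean signal in CLA glands without passing the adjusted test. It had 341, 416, 484 and 428.5 on CLA replicates 1 to 4, against 369, 1245 and 808 on control replicates 1 to 3. The CLA arrays lay close together, control replicate 1 was among them, and control replicates 2 and 3 were above all of them. Cdkn1a averaged 417 ± 58.8 in CLA glands (SD, n = 4) and 807 ± 438 in control glands (SD, n = 3). Its log2 change was -0.80 ± 0.35 (SE), with an interval from -1.59 to -0.0027, a limma unadjusted p of 0.0494 and a limma adjusted p of 0.904. The second probe set had 165, 21.8, 10.8 and 176.5 on the CLA arrays, against 188, 269 and 76.6 on the control arrays, with 2 CLA arrays under the filter signal and a log2 change of -1.61 ± 0.97 (SE). The change of Cdkn1a was -0.11 in the pair with numbers in 27 and -1.18 among the arrays with numbers in 28. It was -1.28 without control replicate 1 (limma adjusted p of 0.148, the smallest of any member under any alternative run) and -0.40 without control replicate 2. Without control replicates 2 and 3 it turned to 0.17, with an interval from -0.50 to 0.83.

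Cdkn1b, which encodes p27, varied as much within the diets as between them. It had 763.5, 1061, 1961 and 1050 on the CLA arrays, against 829.1, 1870 and 1519 on the control arrays. CLA replicate 3 and control replicates 2 and 3 were high, and CLA replicate 1 and control replicate 1 were low. The log2 change was -0.23 ± 0.35 (SE), with an interval from -1.0 to 0.55 and a limma adjusted p of 0.996. CLA replicate 3 also had the highest ratio of the 3′ over the 5′ Actb probe set, which tracks RNA integrity, at 2.78, against 1.41 to 1.88 on the other arrays. The part of RNA integrity in the Cdkn1b value was not tested. The second probe set, with 51.6 on CLA replicate 3 as its lowest signal, had -0.42 ± 0.47 (SE), so the array that was highest on one probe set was lowest on the other. The change of Cdkn1b turned to 0.46 without control replicates 2 and 3.

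Cdkn1c, the imprinted gene of p57, is measured by 1 probe set and had low signals of 236, 254, 303 and 313 on the CLA arrays, against 172, 235 and 286 on the control arrays. The groups overlapped, with control replicate 1 the lowest and CLA replicates 3 and 4 the highest. Its log2 change was 0.28 ± 0.23 (SE), with an interval from -0.24 to 0.79 and a limma adjusted p of 0.966. It was 0.08 without control replicate 1, and 0.67 without control replicates 2 and 3, with an interval from -0.06 to 1.40.

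**Figure D2:**
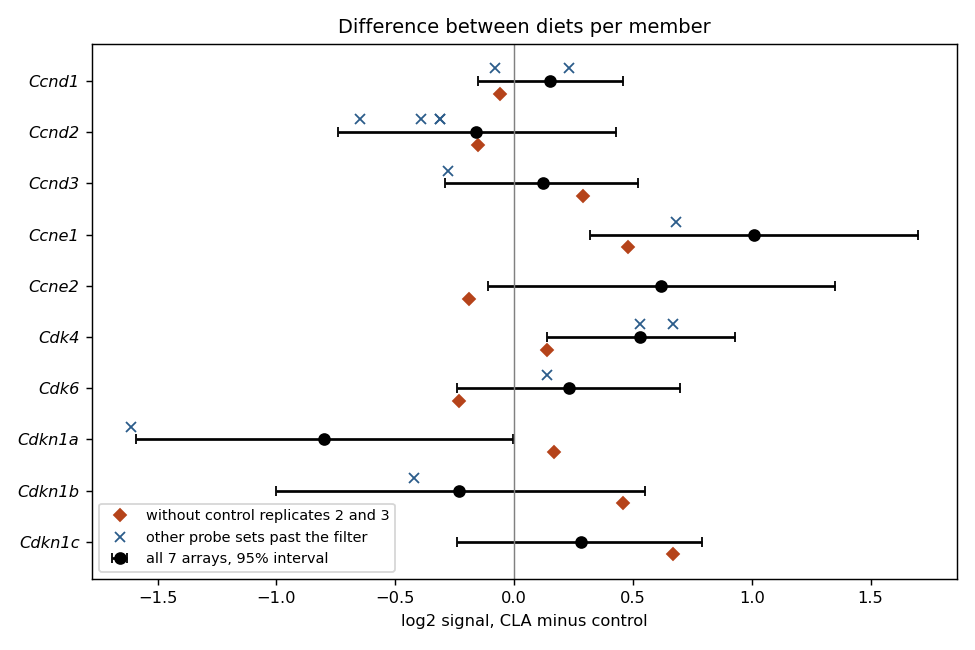
Log2 signal in CLA minus control glands for each member, with the estimate and 95% interval from all 7 arrays (circles), the other probe sets past the filter (crosses) and the estimate without control replicates 2 and 3 (diamonds). The intervals of Ccne1, Cdk4 and Cdkn1a leave out 0, and the diamonds of these 3 lie at 0.48, 0.14 and 0.17.

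Seen by array, the set had one recurring order. On the brightest probe sets, control replicates 2 and 3 were below all other arrays for Ccnd1, Ccne1, Ccne2, Cdk4 and Cdk6. They were above all others for Cdkn1a. The order did not hold on the other probe sets of Ccnd1 or on the second probe sets of Cdk6 and Cdkn1a. On the second Ccnd1 probe set control replicate 3 had 3372, above 3043 on control replicate 1. For Cdk6 control replicate 2 had 973, above 816 on CLA replicate 1. For Cdkn1a control replicate 3 had 76.6, below 188 on control replicate 1. Over the 7 arrays, as a description, the most negative Pearson r among pairs of members were -0.96 for Cdk4 with Cdkn1a and -0.92 for Cdk6 with Cdkn1b. The other pairs of a kinase and an inhibitor had -0.87 (Cdk6 and Cdkn1a), -0.65 (Cdk4 and Cdkn1b), -0.5 (Cdk6 and Cdkn1c) and 0.03 (Cdk4 and Cdkn1c). Ccnd2, Ccnd3 and Cdkn1c did not follow the order of arrays given above. The same 2 arrays held the lowest proliferation scores, -0.88 and -0.51 on control replicates 2 and 3, against 0.43 on control replicate 1, while CLA replicates 1 to 4 had 0.31, 0.34, -0.05 and 0.35. For this score the log2 signals of 24 genes of mitosis and replication, none of them a member, were centred on each gene's mean and averaged per array. The skeletal muscle score, made in the same way from 21 genes, was 1.12, -3.11, -1.10 and -2.87 on CLA replicates 1 to 4, against 0.64, 3.94 and 1.37 on control replicates 1 to 3. It was highest on control replicates 2 and 3, and the summed signal of the list ranged from 1267 to 21032 in CLA glands and from 14326 to 133722 in control glands. In bulk glands, fewer cells of a type and less RNA per cell cannot be told apart.

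**Figure D3:**
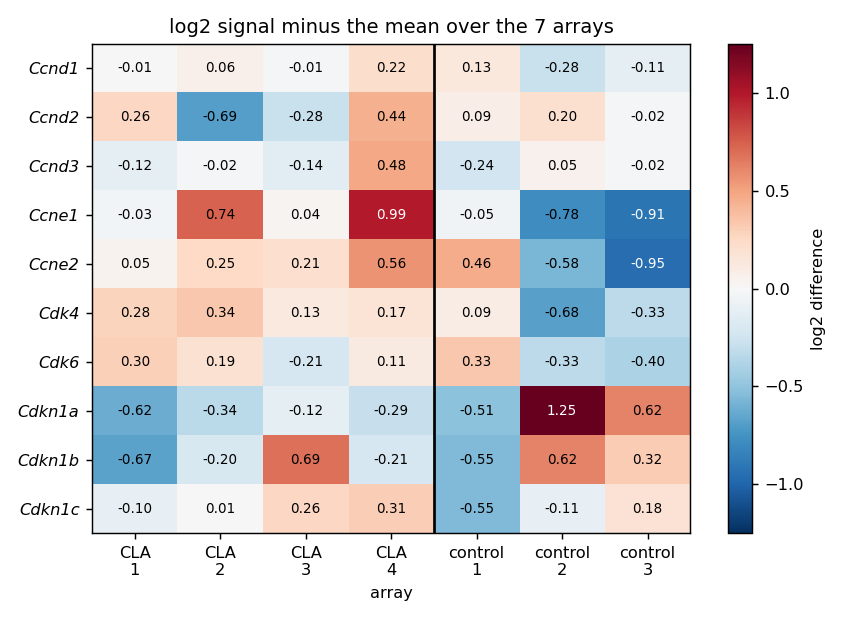
Log2 signal of the brightest probe set of each member, centred on its mean over 7 arrays, with members down and arrays across ( CLA left of the line and control right of it). Control replicates 2 and 3 are low for Ccne1, Ccne2, Cdk4 and Cdk6 and high for Cdkn1a, and control replicate 1 resembles the CLA arrays for these genes.

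The relation of each member to the proliferation and muscle scores was examined over the 7 arrays in 20 correlations. Two-sided exact permutation p-values were adjusted over all 20. The permutations ran over all 7 arrays and took no account of diet. These p-values therefore do not separate a relation within the diets from a difference between them. Against the proliferation score, Cdkn1a had r = -0.98 (exact permutation p = 0.00238, adjusted p = 0.0238) and rho = -0.75 (exact permutation p = 0.0663, adjusted p = 0.166). Ccnd1 had r = 0.91 (exact permutation p = 0.00218, adjusted p = 0.0238) and rho = 0.96 (exact permutation p = 0.00278, adjusted p = 0.0556). Both relations passed in Pearson's measure and neither in Spearman's. Cdk4 had r = 0.94 (exact permutation p = 0.0111, adjusted p = 0.0444) and rho = 0.54 (exact permutation p = 0.236, adjusted p = 0.429), and Cdk6 had r = 0.90 (exact permutation p = 0.00675, adjusted p = 0.0444) and rho = 0.82 (exact permutation p = 0.0341, adjusted p = 0.160).

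The 2 arrays farthest from the median proliferation score were control replicates 2 and 3. Without them r was 0.92 for Cdk6, -0.90 for Cdkn1b, -0.71 for Cdkn1a, 0.60 for Ccnd1, 0.41 for Ccne2, 0.28 for Ccne1 and 0.23 for Cdk4. The relations of Cdk4, Ccne1 and Ccne2 to proliferation thus rested on these 2 arrays, and that of Cdk6 was as large without them. Among the 5 arrays left, CLA replicate 3 stood apart with a score of -0.05, against 0.31 to 0.43 on the others. It also had the lowest Cdk6 signal (1011) and the highest Cdkn1b signal (1961) of the 5. No r was computed without it, so the r values of Cdk6 and Cdkn1b may rest on that array. Over all 7 arrays Ccne1, Ccne2 and Cdkn1b had r of 0.80, 0.87 and -0.79, and Ccnd2, Ccnd3 and Cdkn1c -0.10, -0.01 and -0.19, none past the adjusted threshold. Against the muscle score, Ccne1 had r = -0.90 (exact permutation p = 0.00972, adjusted p = 0.0444), rho = -0.89 (exact permutation p = 0.0123, adjusted p = 0.0820) and r = -0.71 without CLA replicates 2 and 4. The other 9 members did not pass against the muscle score. No correlation was computed within the 5 arrays with numbers in 28 or the 2 with numbers in 27, and the r values without 2 arrays describe 5 arrays, with no test. With the proliferation score as a covariate the log2 changes of Ccne1, Cdk4 and Cdkn1a were 0.60, 0.23 and -0.09. With the muscle score they were 0.31, 0.28 and -0.39. In each of these fits 0 members had an unadjusted limma p under 0.05. Of all 12497 genes, 510 had such a p with the proliferation score and 303 with the muscle score.

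**Figure D4:**
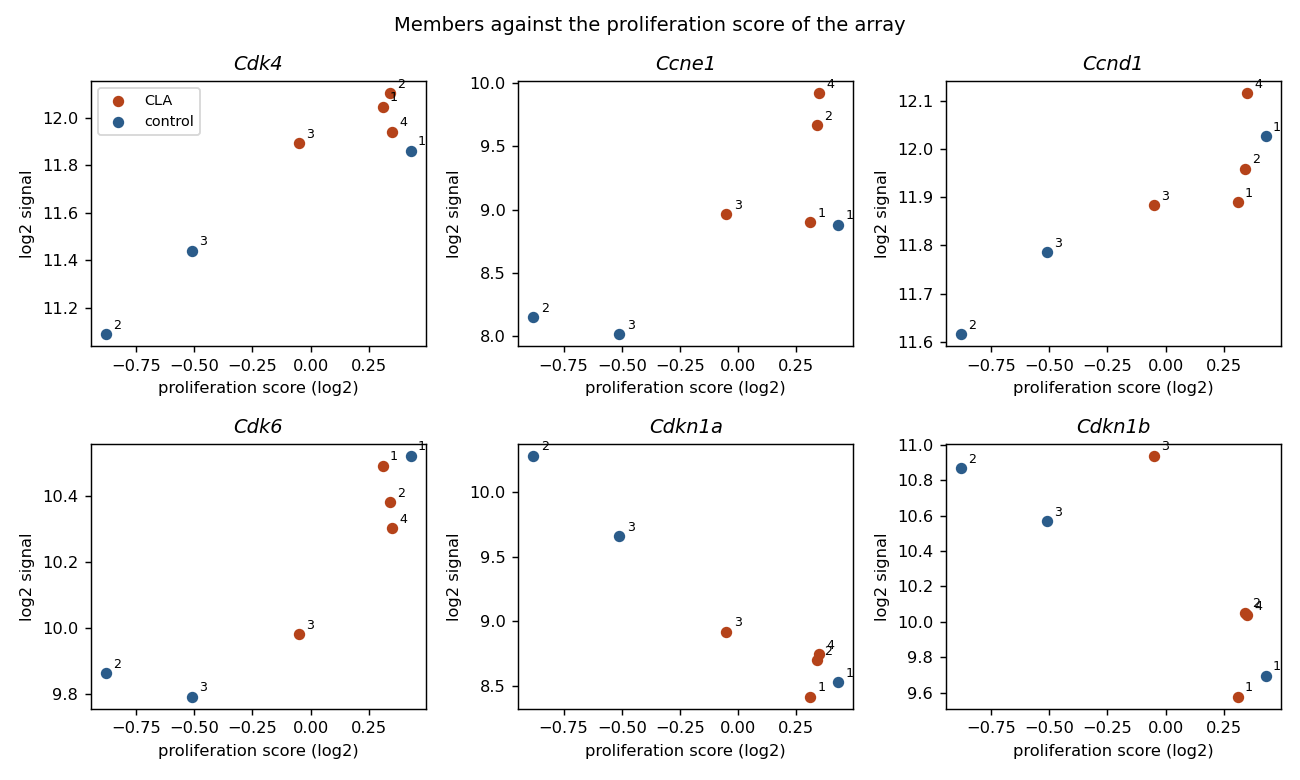
Log2 signal of 6 members (vertical) against the proliferation score of the array (horizontal, log2), with CLA and control arrays in separate colours and numbered by replicate. Control replicates 2 and 3, at -0.88 and -0.51, lie at the left of every panel.

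Genes around the members in the same pathway were examined in 7 lists. As background for these and the cell type lists, 55.3% of all genes tested were above 0 and 5.39% had an unadjusted p under 0.05. Without control replicates 2 and 3, 53.6% were above 0. The list of E2F target genes holds genes of DNA synthesis and origin firing, and also Ccna2, Cdc25a, Mybl2, Ezh2 and Slbp. All 16 E2F target genes tested were above 0, with a median log2 change of 0.62, beside 0.03 over all genes. None of the 16 passed over all genes, while 7 had an unadjusted p under 0.05. Those of smallest p were Rrm2, a ribonucleotide reductase subunit, at 0.77 ± 0.26 (SE), Cdc6, which loads the replicative helicase, at 1.02 ± 0.39, and the thymidine kinase gene Tk1 at 0.81 ± 0.33. Cdc6 had 640, 549, 477 and 672 on the CLA arrays, against 629, 164 and 227 on the control arrays, with control replicate 1 inside the CLA range and the other 2 controls far below it. Without control replicates 2 and 3, 3 of the 16 were above 0 and their median was -0.08.

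Of 13 tested pocket proteins and E2F or DP factors 8 were above 0, with a median of 0.17, and 0 passed. The repressive E2F genes E2f8 and E2f7 had 0.58 ± 0.22 and 0.68 ± 0.31 (SE), and Tfdp1, the dimer partner, 0.43 ± 0.21. The group of the INK4 inhibitors with Cdk2 had 4 tested genes, 2 of them above 0 and 0 past the test, with a median of 0.05. Cdk2, the partner of the E cyclins, had 1048, 1288, 1219 and 899 on the CLA arrays, against 1053, 776 and 627.5 on the control arrays, a log2 change of 0.46 ± 0.21 (SE). Cdkn2b (p15) had -0.35 ± 0.21 and Cdkn2c (p18) 0.10 ± 0.25. With control replicates 2 and 3 left out, 6 of the 13 pocket protein, E2F and DP genes were above 0, with a median of -0.07, and 1 of the 4 genes of the INK4 and Cdk2 group, with a median of -0.09.

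Genes of CDK inhibitor turnover, of the CDK-activating kinase and of the CDC25 and WEE1 families had list medians close to that of the members. Of the turnover genes 6 of 8 were above 0, with a median of 0.18 and 0 past the test. Dtl, the adaptor of a ligase that degrades p21 in S phase, had 0.72 ± 0.30 (SE), Cks1b, cofactor in the degradation of p27, 0.28 ± 0.13, and Skp2, the F-box protein that binds p27, 0.58 ± 0.31. Skp2 had 1409, 1207, 870 and 1258 on the CLA arrays, against 1369, 534 and 647 on the control arrays, with control replicates 2 and 3 again lowest. Of the CDK-activating kinase and CDC25 and WEE1 family genes 6 of 7 were above 0, with a median of 0.16 and 0 past the test, led by Cdc25c at 0.62 ± 0.31, Pkmyt1 at 0.42 ± 0.28 and Cdc25b at 0.34 ± 0.26. With control replicates 2 and 3 left out, 4 of the 8 turnover genes were above 0, with a median of -0.01. Of the 7 CDK-activating kinase, CDC25 and WEE1 family genes 1 was then above 0, with a median of -0.15.

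The p53 target genes were examined beside Cdkn1a. Of 18 tested, 12 were below 0 and 6 above, with a median of -0.14 and 0 past the test. Zmat3, a p53-induced RNA-binding protein gene, had 449, 434, 463 and 468 on the CLA arrays, against 559, 832 and 757 on the control arrays. Its CLA arrays were below all control arrays, and the log2 change was -0.64 ± 0.18 (SE), with a limma unadjusted p of 0.00495 and an adjusted p of 0.688. Phlda3 had -0.48 ± 0.20 and Ccng1, cyclin G1, -0.34 ± 0.18. The list had 10 of 18 above 0 and a median of 0.06 without control replicates 2 and 3, and a median of -0.06 under median centring. Of the inducers of D cyclins 10 of 13 were below 0, with a median of -0.11 and 0 past the test. Stat5a, which mediates prolactin signals, had -0.28 ± 0.13, Stat3 -0.46 ± 0.24 and Jun 0.19 ± 0.12. The inducers had 3 of 13 above 0 and a median of -0.19 without control replicates 2 and 3.

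**Figure D5:**
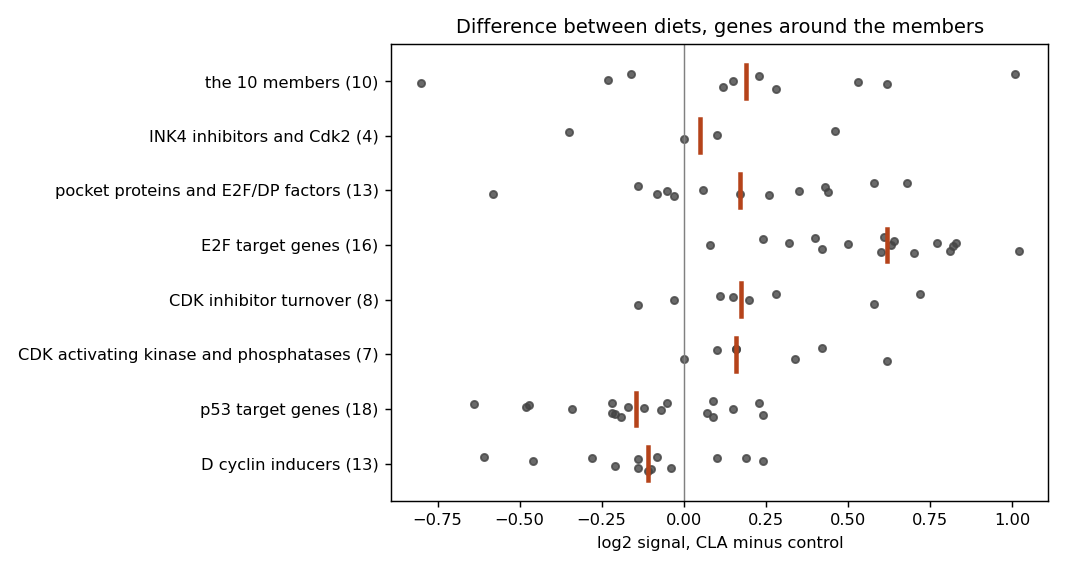
Log2 change, CLA minus control, of each tested gene (points) in the set of 10 and in 7 lists of genes around it, with the median of each list as a bar and the number of genes in parentheses. All 16 E2F target genes lie above 0 and the p53 target genes have a median of -0.14.

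Of the cell type lists, white adipocyte markers were below 0 in 16 of 16 tested and skeletal muscle markers in 21 of 21, with medians of -1.37 and -3.63, and proliferation genes were above 0 in 24 of 24, with a median of 0.55. Luminal epithelial (18 tested), basal and myoepithelial (13), macrophage (10), endothelial (12), fibroblast (11) and lymphocyte (4) markers had medians of -0.03, 0.25, 0.14, -0.28, 0.22 and -0.40. None of these genes passed over all genes. With control replicates 2 and 3 left out, the proliferation genes turned direction, with 4 of 24 above 0 and a median of -0.19, and the muscle markers stayed below 0 in 21 of 21, with a median of -2.19. The luminal, basal, macrophage, endothelial, fibroblast and lymphocyte medians were then 0.09, 0.09, 0.24, -0.05, 0.40 and -0.03. The luminal score had an SD of 0.03 in CLA glands and 0.14 in control glands around means of -0.02 and 0.03, a smaller spread than that of the proliferation or muscle scores. The adipocyte score was lower on all CLA arrays than on all control arrays, and the adipocyte list had 16 of 16 genes below 0 and a median change of -1.26 without control replicates 2 and 3.

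The genes whose pattern over the 7 arrays was most like that of a member were listed as a description, among 11970 tested genes with a standard name. For Ccnd1 they were Spc25, Knstrn, Lrr1, Sftpb and Nme7, with r from 0.978 to 0.992, and Spc25 and Knstrn encode proteins of the kinetochore and spindle. For Ccne1 they were Shmt2, Pde12, Dock5, Snhg3 and Lsm2, with r from 0.972 to 0.988, where Shmt2 is a mitochondrial enzyme of serine and one-carbon metabolism. For Cdkn1a they were Gstt3, Nod1, Grina, Bckdha and Ddrgk1, with r from 0.968 to 0.986.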

How the data were processed

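Biotin-labelled total RNA of 7 mammary glands, 4 CLA and 3 control, was measured on single-colour Affymetrix arrays (45101 probe sets). The deposited table holds linear intensities made with MAS5, per the submitters' processing notes. Neither a version of MAS5 nor a genome build is stated there. Groups came from the diet in the labels, and replicates were numbered in accession order.

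Intensities were floored at 1 before log2. Of the probe sets 64 were controls, 34945 had 1 gene symbol, 932 several and 9160 none, and symbols were updated by Entrez identifier for 34741. The 5696 genes whose mean log2 signal fell under that of the lowest 40% of probe sets (57.7) were not tested. The test was limma 3.58.1 in R 4.3.3 (lmFit and trended eBayes, prior degrees of freedom 4.53), two-sided and without covariates. Benjamini-Hochberg adjustment ran over all tested genes with a threshold of 0.05 and 95% intervals. Probe sets other than the brightest were fitted together with all probe sets that have 1 symbol. The fit was tested on simulated data with independent noise per gene and array. Shifts shared by many genes of an array were not simulated.

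The members, lists, alternatives and tests were chosen with earlier results of these data known. Named genes are the members, the 3 of smallest p of each pathway list and the 5 most like Ccnd1, Ccne1 and Cdkn1a. For cell type lists counts and medians are given, with single genes only where a result turns on them. Xist, Eif2s3x and the Y-linked genes, the separation count of Cdk4, the motifs and the comparison without control replicates 2 and 3 were chosen after values were seen. Promoters came from RefSeq (6 of 10 members matched). Figures used matplotlib 3.10.9 in Python 3.11.15.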

Additional observations from a re-analysis of the deposited data

Results flagged for a closer look

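Within the CLA group, 1 array stood apart from the other 3 in the proliferation score, by more than Dixon's critical value for 4 samples. CLA replicate 3 had a score of -0.05, against 0.31, 0.34 and 0.35 on CLA replicates 1, 2 and 4, a gap of 0.896 of the group's range. It was the only one of 12 sets of CLA values examined, the 10 members and 2 scores, and chance flags about 1 in 20. On the same array Cdk6 was lowest and Cdkn1b highest among CLA glands, at 1011 and 1961, and the Actb 3′ to 5′ ratio was 2.78. The part of RNA integrity in these values was not tested.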

How the results depend on the processing

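No member passed limma's adjusted threshold under any alternative run, with adjusted p from 0.148 to 1.0, and 192 of 208 member values kept their sign. Ccne1, Cdk4 and Cdkn1c kept theirs under every alternative run, Cdkn1a under all but that without control replicates 2 and 3. Without those 2 arrays signs turned for Ccnd1 (-0.06), Ccne2 (-0.19), Cdk6 (-0.23), Cdkn1a (0.17) and Cdkn1b (0.46), and the cause was not tested. Ccnd3 turned as the mean of its probe sets (-0.18), on its second brightest probe set (-0.28) and without CLA replicate 4 (-0.03). Ccnd2 turned without CLA replicate 2 (0.05) and when the fit held the muscle score (0.11), which also turned Ccnd1 (-0.06). With the proliferation score Ccnd1 (-0.02), Cdk6 (-0.11) and Cdkn1b (0.39) turned. Cdkn1b also turned without control replicate 2 (0.02) and without control replicate 2 and CLA replicate 1 together (0.21). With 1 or 2 arrays left out, Ccnd2 ran from -0.33 to 0.05, Ccnd3 from -0.03 to 0.29 (0.23 without control replicate 2 and CLA replicate 1) and Cdkn1b from -0.57 to 0.46, while Cdkn1c ran from 0.08 to 0.67 and Cdkn1a from -1.28 to 0.17. The members' median log2 change was 0.05 as means of probe sets and 0.14 to 0.21 with an array left out. Median centring raised the median of all genes by 0.08 and their share above 0 to 69.1%, against 55.3%.

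Counts of genes past the adjusted threshold ran from 0 to 17 with an array left out, 17 lower genes without CLA replicate 4 and 2 higher genes, Krt5 (1.70) and Xist (6.70), without control replicate 1. Within title numbers starting with 28 the count was 1, Xist (6.58). At an unadjusted p under 0.05 the 674 genes became 1380 without control replicate 1, 1227 within title numbers starting with 28, 380 without control replicate 2, 430 without CLA replicate 2, 435 without control replicate 2 and CLA replicate 1, and 303 with the muscle score or without control replicates 2 and 3. Second probe sets, every probe set as a row (0 genes, 1121 at an unadjusted p under 0.05) and the fits without 2 arrays were chosen after seeing the data. No paired analysis was possible because the titles give the groups no shared replicate numbers. With the leading digits of the title numbers as a block instead, 0 genes passed and 935 had an unadjusted p under 0.05, and the changes of Ccne1, Cdk4 and Cdkn1a were 1.02, 0.56 and -0.87, each at a limma adjusted p of 0.564. The number of arrays limits every value, and signals under the filter limit the second Cdkn1a probe set.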

Other observations

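The Xist signals of control replicates 2 and 3 were low on all 3 Xist probe sets. The second had 4416, 2748, 3454 and 3526 on CLA replicates 1 to 4, against 5950, 14.6 and 22.6 on control replicates 1 to 3. The third had 343, 500.5, 804 and 330.4 on the CLA arrays, against 372, 4.2 and 2.3 on the control arrays. A second probe set of Eif2s3x had 6529, 7089, 6779 and 6982 on the CLA arrays, against 6485, 4352 and 4287 on the control arrays, while Ddx3x, also X-linked, had 10034 and 11361 on control replicates 2 and 3, against 10427 to 12252 on the other 5 arrays.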
